A study of Mus musculus with 32 samples.

Results

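Light alone was compared with no treatment in primary mouse astrocytes at 24 h. Astrocytes are the star-shaped glial cells that feed neurons, clear their transmitters and take part in brain inflammation. The comparison set 4 libraries of cultures given light (photobiomodulation, PBM) against 4 libraries of untreated cultures (Control), 8 of the 32 libraries of the series. It covered the 12643 of 21899 genes in the deposited table whose mean reached 1 FPKM (fragments scaled to transcript length and library size) in either group. The lowest mean just inside that limit was 1.0 FPKM, the highest just outside it was 0.998 FPKM, and 8247 of the 9256 genes left out were listed at 0 in all 8 libraries. Besides Control and PBM, the series held cultures given lipopolysaccharide (LPS, a coat molecule of Gram-negative bacteria that activates Toll-like receptor 4) and cultures given LPS with PBM, and each treatment had 4 libraries at 4 h and 4 at 24 h. No genetic change is named for any group. The sources used here do not give the wavelength and dose of the light, the time from light to harvest, the age and strain of the mice, or whether the 4 libraries of a group came from separate cultures. The p-values therefore measure the spread between these libraries, which may be technical.

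Photobiomodulation is the exposure of cells to low-power red or near-infrared light, and cytochrome c oxidase of the mitochondrial respiratory chain is the absorber proposed most often. Immediate early genes such as Fos, Egr1 and Nr4a1 are transcribed within minutes of a stimulus by factors already present in the cell, among them serum response factor and CREB, and their messages are short-lived. In astrocytes they respond to calcium, growth factors, transmitters and changes of the medium, and their products then switch on later genes.

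Depth was inferred from the steps between low FPKM values, at 130723 to 143104 fragments in the Control libraries and 136812 to 143251 in the PBM libraries, which is very shallow for bulk RNA sequencing. A single fragment in a transcript of 1 kb was then worth 6.98 to 7.65 FPKM. The housekeeping gene Ppia reached at most 23.1 FPKM and was at 0 in some libraries of both groups, so a listed 0 does not show that a gene was off. Whether depth alone kept Ppia so low was not tested. A library had 10581 to 10777 genes above 0, and the share of its FPKM in mitochondrially encoded genes was 7.81% to 8.98%. Across genes, Pearson's r on log2(FPKM + 1) was 0.763 to 0.780 for the 12 pairs of libraries within a group and 0.758 to 0.778 for the 16 pairs between groups. The column of PBM replicate 2 is among 6 that stand at the end of the table out of its order; no label calls them a batch, and results without them are given where they change. The 95% interval of the difference lay within 1 log2 unit either way for 2251 genes (17.8%), and for 96.4% of the 275 genes averaging 200 FPKM or more. In the 3024 genes of 1 to 5 FPKM that share was 0.0661%.

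The cultures held astrocyte transcripts and those of other cells. Of the 25 homeostatic astrocyte genes, Gjb6 and Slc7a10 were listed at 0 throughout, and the list summed to 1434 to 1637 FPKM in Control and 1296 to 1510 FPKM in PBM. The 20 microglia and macrophage markers summed to 2281 to 2501 FPKM in Control and 1722 to 2456 FPKM in PBM, and none of them was at 0 in all 8 libraries. Fibroblast and meningeal markers summed to 3008 to 3430.5 FPKM and 3402 to 3798 FPKM, with 4 of 14 at 0 throughout (Slc6a13, Dpp4, Pi16 and Cdh1). Endothelial and mural markers summed to 1024 to 1144 FPKM and 995 to 1193 FPKM. Neuron markers summed to at most 129 FPKM in a library, with 9 of 16 at 0 throughout. In such bulk samples, fewer cells of a type and less RNA per cell cannot be told apart.

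With light, 15 of the 12643 genes (0.119%) passed a limma adjusted p of 0.05. Of these, 13 were lower (0.103%) and 2 were higher (0.0158%). Among the 13 were 8 immediate early genes, namely Egr1, Fos, Fosb, Junb, Nr4a1, Atf3, Ier3 and Klf6. The other 5 were Ptgs2 (cyclooxygenase-2, which makes prostaglandin precursors), Nfkbiz (an atypical inhibitor of NF-kappaB), Socs3 (a feedback inhibitor of cytokine receptors), Bhlhe40 (a repressor in the circadian clock) and Pex3 (a peroxisome assembly factor). Without adjustment, 412 genes were lower (3.26%) and 372 higher (2.94%) at p under 0.05. Over all genes tested the median log2 difference was 0.01, and 49.5% lay below 0. Egr1, Fos, Fosb, Junb, Nr4a1 and Ptgs2 kept their calls in all 18 other ways of processing. With only the 8 libraries in the fit, these 6 genes and Atf3 were called, and without the 6 libraries listed last, 8 of the 15 kept their calls, these 6 with Nfkbiz and Socs3.

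**Figure D1:**
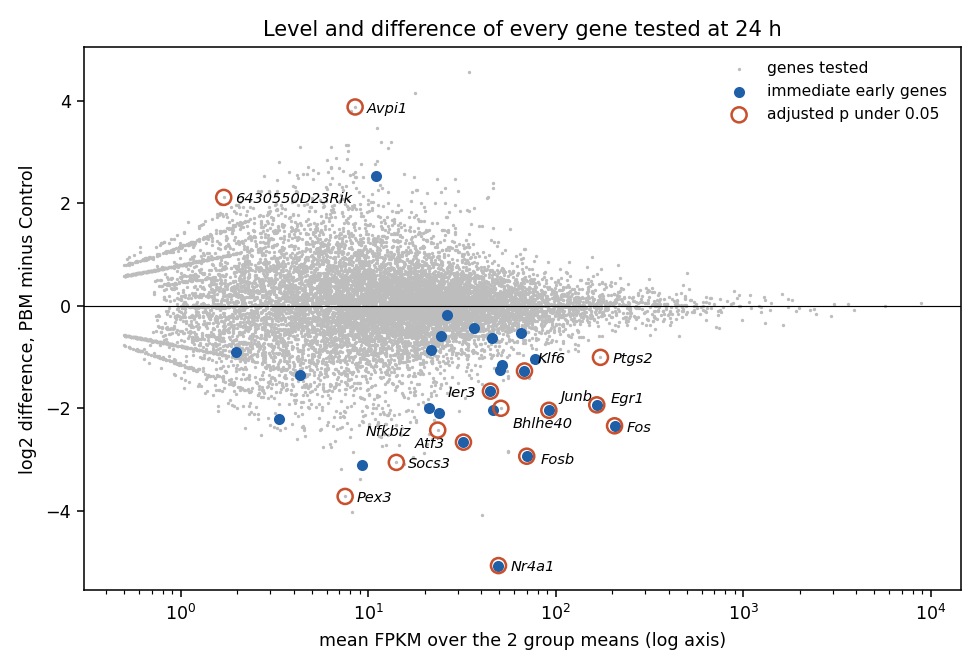
Each point is a gene, with its mean FPKM over the PBM and Control means on a log axis and its log2 difference between PBM and Control at 24 h on the vertical axis. Blue points are the 25 immediate early genes, of which 24 lie below 0, and red rings mark the 15 genes with an adjusted p under 0.05.

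Egr1 (ENSMUSG00000038418, chromosome 18, 34859823 to 34864984, plus strand), a zinc finger activator, stood at 278, 225, 257 and 291 FPKM in Control and at 60.7, 55.9, 80.5 and 76.4 FPKM in PBM. It had the smallest adjusted p of all genes, 5.43e-06, with a log2 difference of -1.94 ± 0.16, and its highest PBM library was far under its lowest Control library.

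Fos and its relatives encode partners of Jun proteins in AP-1, a dimeric transcription factor. Fos (ENSMUSG00000021250, GRCm38 chromosome 12, 85473890 to 85477273, plus strand) stood at 403, 302, 334 and 327 FPKM in the Control libraries and at 92.9, 38.1, 55.6 and 96.0 FPKM in the PBM libraries. Every PBM library lay below every Control library, and the log2 difference was -2.35 ± 0.27 (SE, n = 4 a group, limma adjusted p = 0.000145). Fosb (chromosome 7, 19302696 to 19310051, minus strand) was at 129, 83.2, 160 and 125 FPKM in Control and at 13.4, 8.28, 22.9 and 19.1 FPKM in PBM. Its mean level fell by 87.2%. Junb (chromosome 8, 84974484 to 84978718, minus strand), a Jun partner of Fos, went from 163, 116, 141 and 173 FPKM to 30.9, 28.2, 36.5 and 46.3 FPKM. The groups did not overlap for either gene. The log2 difference was -2.94 ± 0.32 for Fosb and -2.04 ± 0.22 for Junb (both adjusted p = 0.000101), and Junb shares exon sequence with its neighbour Prdx2.

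Nr4a1 (ENSMUSG00000023034, chromosome 15, 101254269 to 101274795, plus strand), an orphan nuclear receptor also called Nur77, stood at 91.8, 79.0, 103 and 108 FPKM in Control. In PBM it was listed at 0 in replicates 1 and 2 and stood at 5.92 and 8.45 FPKM in replicates 3 and 4, about 3.40 fragments over the 4 libraries by its annotated transcript length. Its log2 difference of -5.07 ± 0.56 was the lowest of all genes tested (adjusted p = 0.000101). This size depends on the added 1 FPKM, since 2 PBM libraries were at 0.

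The 250 bases before the RefSeq start of these genes are shown because all 4 promoters hold the letters TGACG, the half-site bound by CREB and related factors. They are read 5′ to 3′ on the gene's strand, with TGACG, or CGTCA where the letters lie on the opposite strand, in capitals. The regions are chr12:85473640-85473889 on the plus strand for Fos, chr7:19310046-19310295 on the minus strand for Fosb, chr8:84978749-84978998 on the minus strand for Junb and chr15:101266596-101266845 on the plus strand for Nr4a1 (RefSeq, GRCm38.p6).
Fos: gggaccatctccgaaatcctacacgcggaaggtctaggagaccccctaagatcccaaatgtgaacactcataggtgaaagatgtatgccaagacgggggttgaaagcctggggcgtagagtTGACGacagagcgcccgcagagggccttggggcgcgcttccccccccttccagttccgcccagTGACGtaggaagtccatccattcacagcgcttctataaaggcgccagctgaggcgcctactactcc
Fosb: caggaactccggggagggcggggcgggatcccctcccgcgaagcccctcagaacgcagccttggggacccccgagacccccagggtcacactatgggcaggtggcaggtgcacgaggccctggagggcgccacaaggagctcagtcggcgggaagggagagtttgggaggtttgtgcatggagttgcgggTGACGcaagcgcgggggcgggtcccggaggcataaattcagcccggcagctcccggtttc
Junb: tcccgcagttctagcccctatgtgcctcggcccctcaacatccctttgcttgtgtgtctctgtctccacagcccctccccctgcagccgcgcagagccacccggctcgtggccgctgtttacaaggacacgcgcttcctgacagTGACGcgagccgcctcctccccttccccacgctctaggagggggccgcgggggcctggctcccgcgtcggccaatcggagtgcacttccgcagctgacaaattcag
Nr4a1: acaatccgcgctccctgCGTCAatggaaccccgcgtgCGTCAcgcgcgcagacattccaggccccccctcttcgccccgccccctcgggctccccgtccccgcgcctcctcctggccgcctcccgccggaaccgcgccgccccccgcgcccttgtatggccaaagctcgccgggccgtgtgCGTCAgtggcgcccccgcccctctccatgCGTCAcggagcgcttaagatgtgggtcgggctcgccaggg
The letters began or ended 129 and 66 bases before the start in Fos, 60 bases before it in Fosb, 106 in Junb, and 233, 213, 69 and 40 in Nr4a1. Counting both strands, they occurred in 5836 of 32851 promoters of this length (17.8%). They occurred in 5 of the 10 promoters found for the 13 genes that fell (those of these 4 genes and of Atf3), and in 14 of 22 promoters (63.6%) of 18 immediate early genes, some of which have several listed starts. A CArG box, the site of serum response factor, was in 482 promoters overall (1.47%), in 0 of those 10 and in 4 of those 22. No promoter was found for Egr1, Nfkbiz and Bhlhe40, so the counts for the genes that fell leave them out. Sites more than 250 bases upstream were not searched for either motif. A match describes letters in this window and is not a measured binding site.

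The other called early genes stood at lower levels. Atf3, a stress-induced partner of AP-1 proteins, was at 59.7, 45.8, 45.4 and 73.2 FPKM in Control and at 7.34, 3.83, 11.5 and 11.0 FPKM in PBM (log2 difference -2.66 ± 0.46, adjusted p = 0.0177). Ier3, which modulates survival signalling, was at 80.4, 43.3, 86.2 and 60.9 FPKM in Control and at 12.4, 12.9, 25.9 and 37.0 FPKM in PBM (-1.67 ± 0.30, adjusted p = 0.0262). Klf6, a zinc finger factor induced by injury, was at 79.0, 92.6, 102 and 110.4 FPKM in Control and at 40.9, 27.6, 34.7 and 57.8 FPKM in PBM (-1.27 ± 0.23, adjusted p = 0.0262). All PBM libraries of these 3 genes lay below all their Control libraries. The call of Atf3 was lost when Control replicate 1 or 4 or PBM replicate 1 or 2 was left out, and that of Ier3 without Control replicate 1, 3 or 4 or PBM replicate 1 or 2. Ier3 also lost it with limma-voom on approximate fragments (adjusted p = 0.156). That of Klf6 was lost without Control replicate 2, 3 or 4 or PBM replicate 1, 2 or 3.

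**Figure D2:**
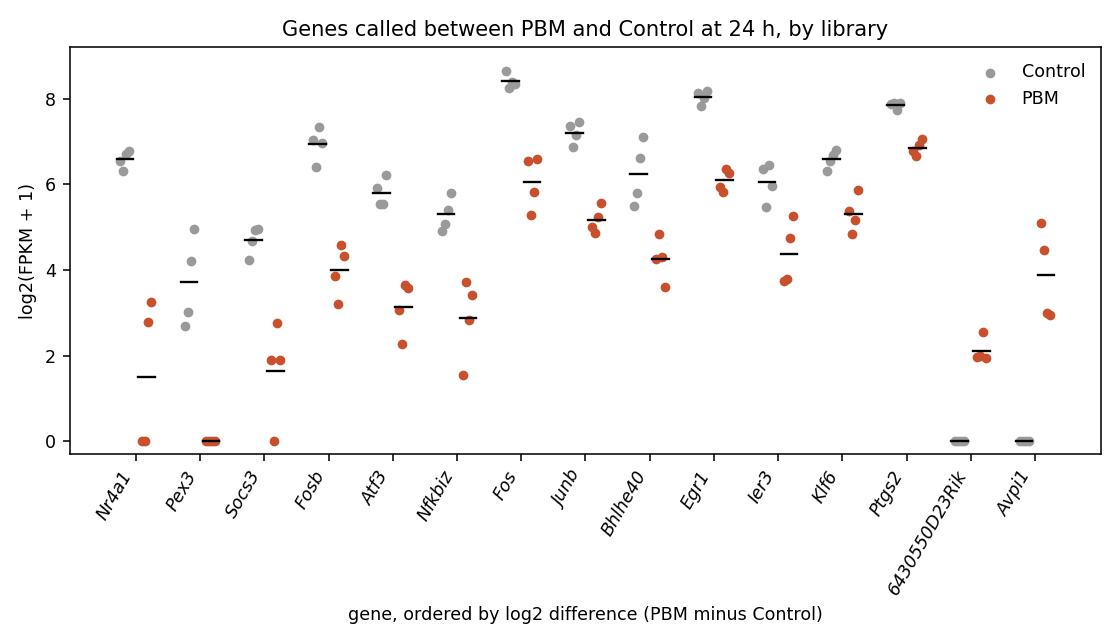
Points are the libraries of Control (grey) and PBM (red) at 24 h, on the log2(FPKM + 1) scale, for the 15 genes with an adjusted p under 0.05, and bars are group means. The groups do not overlap in any of them, Pex3 is at 0 in every PBM library, and Avpi1 and 6430550D23Rik are at 0 in every Control library.

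Of the 25 immediate early genes, all 25 were tested and 24 had a log2 difference below 0, with a median of -1.35. In 17 all PBM libraries lay below all Control libraries, which held for 1.88% of all genes tested, and in 1 they all lay above (1.22% of all genes). Their summed level was 2028, 1665, 1888 and 1934 FPKM in the Control libraries and 604, 549, 587 and 743 FPKM in the PBM libraries. The list median ranged from -1.77 to -1.30 over the 18 other ways of processing. The list was written with earlier results of these data known and holds 8 called genes, so its counts are not independent support. Besides the 8 that passed, 12 were lower at an unadjusted p under 0.05, as were 3.26% of all genes, and their adjusted p-values were 0.0558 or more.

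Among these, Jun, the main partner of Fos, was at 71.3, 87.7, 56.4 and 69.5 FPKM in Control and at 30.7, 25.2, 32.2 and 28.4 FPKM in PBM (log2 difference -1.25, adjusted p = 0.0558). Ier2 was at 55.2 to 87.1 FPKM in Control and 4.81 to 41.2 FPKM in PBM. The vascular and stem cell factors Klf2 and Klf4 were at 22.7 to 57.5 and 64.6 to 78.3 FPKM in Control and at 3.95 to 18.9 and 27.6 to 38.9 FPKM in PBM. Dusp1, the phosphatase that inactivates MAP kinases, was at 78.2 to 145 FPKM in Control and 42.2 to 58.6 FPKM in PBM, and shares exon sequence with Ergic1. In each of these 5 genes the groups did not overlap, and none of them passed the adjusted test.

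Egr3, a relative of Egr1, was at 12.4 to 24.2 FPKM in Control and at 0 to 4.83 FPKM in PBM, while Egr2 overlapped because of 33.9 FPKM in PBM replicate 2. Arc, known for its part at synapses, was at 2.48 to 12.3 FPKM in Control and listed at 0 in 3 PBM libraries. Nr4a2 and Nr4a3 reached at most 10.2 FPKM in any library of both groups. Jund, Klf10, Btg2, Fosl2 and Ier5 had log2 differences of -0.87 to -0.44. Myc, which drives growth, was at 27.6 ± 8.01 FPKM in Control and 25.3 ± 9.61 FPKM in PBM (mean ± SD). Its 95% interval, -0.93 to 0.58 on the log2 scale, spans falls and rises.

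The exception in direction was Fosl1, which encodes the Fos relative FRA-1. Control replicates 1 and 4 were at 0 and the others at 6.67 and 7.84 FPKM, and it stood at 12.5, 11.7, 39.7 and 9.54 FPKM in PBM. All PBM libraries lay above all Control libraries, with a log2 difference of 2.52 ± 0.76 that did not pass (adjusted p = 0.533). Fosl1 overlaps the exons of Ccdc85b.

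Ptgs2 (ENSMUSG00000032487, chromosome 1, 150100031 to 150108227, plus strand) is an inducible enzyme gene that is also counted among the A2 reactive astrocyte genes. It stood at 235, 239, 214 and 239 FPKM in Control and at 108, 99.9, 120.1 and 132 FPKM in PBM. The groups lay apart by more than the range within either, and the log2 difference was -1.01 ± 0.11 (adjusted p = 0.000101). The second called member of inflammatory signalling was Nfkbiz, at 29.3, 32.8, 41.3 and 54.8 FPKM in Control and 1.93, 12.1, 6.06 and 9.62 FPKM in PBM (-2.43 ± 0.37, adjusted p = 0.00581). Nfkbia, the classical NF-kappaB inhibitor, was at 22.2 to 28.5 FPKM in Control and at 0, 9.24, 9.28 and 13.3 FPKM in PBM, which did not pass (adjusted p = 0.338). Of the 22 NF-kappaB subunits, feedback genes and targets tested, Nfkbiz was the only called gene, 12 lay below 0, and the median was -0.11.

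Bhlhe40 was at 43.8, 54.5, 97.0 and 137 FPKM in Control and at 18.0, 27.4, 18.8 and 11.2 FPKM in PBM (95% interval of the log2 difference -2.75 to -1.25, adjusted p = 0.0262). The Control libraries spread widely, yet the lowest of them exceeded every PBM library. The call was lost when Control replicate 3 or 4 or PBM replicate 1, 3 or 4 was left out. Of 18 circadian clock genes tested, 12 lay below 0, with a median of -0.39. Per1, a clock repressor that is also rapidly induced, was at 29.8, 54.2, 14.5 and 33.9 FPKM in Control and at 23.0, 3.21, 6.46 and 8.29 FPKM in PBM, and the groups overlapped.

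Pex3 (chromosome 10, 13523842 to 13553142, minus strand) was at 5.49, 7.13, 17.6 and 30.0 FPKM in Control and listed at 0 in all 4 PBM libraries (adjusted p = 0.00982). About 11.1 fragments over the 4 Control libraries lay behind these values, the gene shares exon sequence with Adat2, and the call was lost without Control replicate 4. Avpi1, a gene named for its induction by vasopressin, was the reverse. Every Control library listed it at 0, and it stood at 33.5, 21.0, 7.02 and 6.68 FPKM with PBM (adjusted p = 0.00509), about 7.68 fragments in all. The call was lost with all 32 libraries in the fit. In Control cultures at 4 h, however, Avpi1 stood at 20.9 ± 8.45 FPKM. The other gene called higher, 6430550D23Rik, was listed at 0 in Control and at 2.87 to 4.82 FPKM in PBM (adjusted p = 0.0324). By annotated transcript length that is about 1.09 fragments in all. This is fewer than the 4 PBM libraries above 0, so fragment numbers worked out from annotated lengths are rough. Leaving out any of the 8 libraries ended the call of 6430550D23Rik.

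No other gene higher with light passed. Those with the smallest p were Ndufc1, a subunit of respiratory complex I, Rsrp1, Znrf1, Spc24, Dlg4, Slc50a1, Pgm3, Prdm11 and Gpc2, with adjusted p-values of 0.0667 to 0.326. Ndufc1 was at 0 in Control replicates 1 to 3 and at 12.3 FPKM in replicate 4, and stood at 58.4, 117, 5.87 and 83.9 FPKM in PBM, so that the groups overlapped. Rsrp1 was at 17.3, 32.0, 38.6 and 30.6 FPKM in Control and at 95.9, 100.1, 83.8 and 55.9 FPKM in PBM. Znrf1, a ubiquitin ligase, was at 7.46 to 14.2 FPKM in Control and 23.4 to 62.0 FPKM in PBM. Dlg4, which encodes the scaffold PSD-95, was at 10.0 to 30.3 FPKM in Control and 36.9 to 97.3 FPKM in PBM. In the last 3 genes every PBM library exceeded every Control library, which held for 1.22% of all genes tested. Since these genes were named for their small p, this adds no support.

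STAT5A and SOCS3 are the pair named in the title of the study. Socs3 (ENSMUSG00000053113, chromosome 11, 117966079 to 117970047, minus strand) was at 17.8, 24.7, 29.4 and 30.0 FPKM in Control and at 2.74, 0, 5.74 and 2.73 FPKM in PBM. The groups did not overlap, and the log2 difference was -3.06 ± 0.50 (adjusted p = 0.0105). The call was lost without Control replicate 4 and with a pseudocount of 0.1. Stat5a, the transcription factor of the axis, was at 1.95, 3.74, 4.01 and 4.09 FPKM in Control and at 1.94, 0, 0 and 0 FPKM in PBM, and did not pass (-1.73 ± 0.76, adjusted p = 0.782). Stat5a overlaps Stat3 exons and rested on about 6.71 and 1.00 fragments in the 2 groups. Stat5b, its close relative, was at 4.49 to 7.55 FPKM in Control and 9.65 to 11.2 FPKM in PBM (adjusted p = 0.865).

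Cish, a STAT5 target, was listed at 0 in 2 libraries of each group and reached at most 10.2 FPKM. Socs6, another family member, was at 7.60 to 19.5 FPKM in Control and 24.2 to 71.3 FPKM in PBM, without passing (adjusted p = 0.585). Of the 15 SOCS family genes and STAT5 targets, 10 lay above 0 with a median of 0.30, and Socs3 was the only called member. None of the inflammatory genes of the study passed the adjusted test. Cxcl10, an interferon-induced chemokine, was at 80.8 ± 72.1 FPKM in Control and 70.1 ± 49.5 FPKM in PBM. Ccl2, which attracts monocytes, was at 33.5 ± 26.2 and 26.3 ± 18.4 FPKM. Il6 was at 0 to 25.9 FPKM in Control and 0 to 16.3 FPKM in PBM, and Il1b was listed at 0 in all libraries but PBM replicate 2 (5.38 FPKM). Tnf was at 4.67 to 14.3 FPKM in Control and at 0, 0, 13.4 and 4.77 FPKM in PBM (log2 difference -1.64, adjusted p = 0.716).

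The homeostatic, pan-reactive and A1 reactive astrocyte lists gave no call, and in the A2 reactive list only Ptgs2 was called. Gfap, the intermediate filament of reactive astrocytes, was at 89.0, 52.9, 65.1 and 63.5 FPKM in Control and at 29.0, 33.0, 49.8 and 31.6 FPKM in PBM. The groups did not overlap, but the log2 difference of -0.90 ± 0.30 did not pass (adjusted p = 0.585). Of the 23 homeostatic genes tested, 19 lay below 0 with a median of -0.53. Among them the glutamate transporter gene Slc1a2 ranged from 2.64 to 71.5 FPKM within Control alone, and Aldoc, the brain aldolase, was at 13.2 to 36.4 FPKM in Control and 0 to 21.2 FPKM in PBM. Of the 20 microglia and macrophage markers, 13 lay below 0 with a median of -0.21 and none passed. In 3 of the 20 all PBM libraries lay below all Control libraries, which held for 1.88% of all genes. At an unadjusted limma p under 0.05, 3 of the 20 were lower, as were 3.26% of all genes. Fcer1g, a signalling chain of Fc receptors in these cells, was at 44.5 to 56.2 FPKM in Control and 21.7 to 32.5 FPKM in PBM. The summed microglial markers of PBM replicate 1, at 2456 FPKM, lay within the Control range. In PBM replicates 2, 3 and 4 the markers summed to 1722, 2091 and 1903 FPKM, under every Control library. The part of these cells in the other differences was not tested.

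The type I interferon and antigen presentation lists lay mostly above 0 without a call, as did other lists. Among those were the A1 reactive genes (8 of 11 above 0, median 0.33), complement (12 of 17, 0.21) and the hypoxia response (12 of 14, 0.27). The hypoxia list summed to 315 to 366 FPKM in Control and 405 to 456 FPKM in PBM. Of 32 type I interferon response genes tested, 26 lay above 0 with a median of 0.33, and 5 were higher at an unadjusted p under 0.05, as were 2.94% of all genes. Their summed level overlapped, at 3857 to 6522 FPKM in Control and 5034 to 6579 FPKM in PBM. In 2 of the 32, Oasl2 and Stat2, every PBM library exceeded every Control library, which held for 1.22% of all genes. Oasl2, an antiviral protein, was at 158, 148, 223 and 192 FPKM in Control and at 270.3, 252, 228 and 289.9 FPKM in PBM (log2 difference 0.54 ± 0.17, adjusted p = 0.544). Stat2, which carries the interferon signal to the nucleus, was at 46.1 to 69.0 FPKM in Control and 78.0 to 110.04 FPKM in PBM (adjusted p = 0.573). Of 19 antigen presentation genes, 16 lay above 0 with a median of 0.31. Tapbp, which loads peptides on MHC class I, was at 67.5 to 121 FPKM in Control and 128 to 149 FPKM in PBM, while B2m, the light chain of that complex, overlapped at 1308 to 1701 and 1374 to 2001 FPKM. Tapbp was the 1 gene of these 19 in which every PBM library exceeded every Control library.

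The mitochondrial lists, which hold the proposed absorber of the light, gave no call either. The 13 mitochondrially encoded respiratory genes had a median log2 difference of 0.03, the 23 nuclear cytochrome c oxidase subunits -0.04, and the 44 subunits of the other complexes -0.17. mt-Co1, the catalytic oxidase subunit and the gene with the highest level, stood at 8716 ± 388 FPKM in Control and 9085 ± 551 FPKM in PBM. Its 95% interval ran from -0.07 to 0.19 on the log2 scale. mt-Nd6 was at 714 to 869 FPKM in Control and 899 to 1091 FPKM in PBM, every PBM library above every Control library (adjusted p = 0.573). It shares sequence positions with mt-Nd5 on the opposite strand. Cox6c, a nuclear subunit, was at 104 to 181 FPKM in Control and 41.7 to 125 FPKM in PBM (adjusted p = 0.585).

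Of 15 light sensor and light-gated channel genes, 6 were tested and 9 were listed at 0 in all 8 libraries, among them the opsin genes Opn4 and Opn5. Of the 6 tested, 5 lay below 0 and 1 above, with a median of -0.59. The 1 above 0 was Trpv2, a cation channel. It was at 0 to 7.91 FPKM in Control and 8.25 to 18.5 FPKM in PBM without passing (adjusted p = 0.338). Cry2, a clock flavoprotein, overlapped. The 27 NRF2 antioxidant and redox genes, the 19 heat shock genes and the 23 stress response genes gave no call, with medians of -0.13, 0.01 and -0.04. None of 34 extracellular matrix genes was called, and their summed level was 13430 to 14274 FPKM in Control and 14658 to 15137 FPKM in PBM. Among the most abundant transcripts, Eef1a1, a translation elongation factor, had a log2 difference of -0.15 ± 0.05 and the ferritin chain Fth1 one of -0.19 ± 0.11, neither of which passed.

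**Figure D3:**
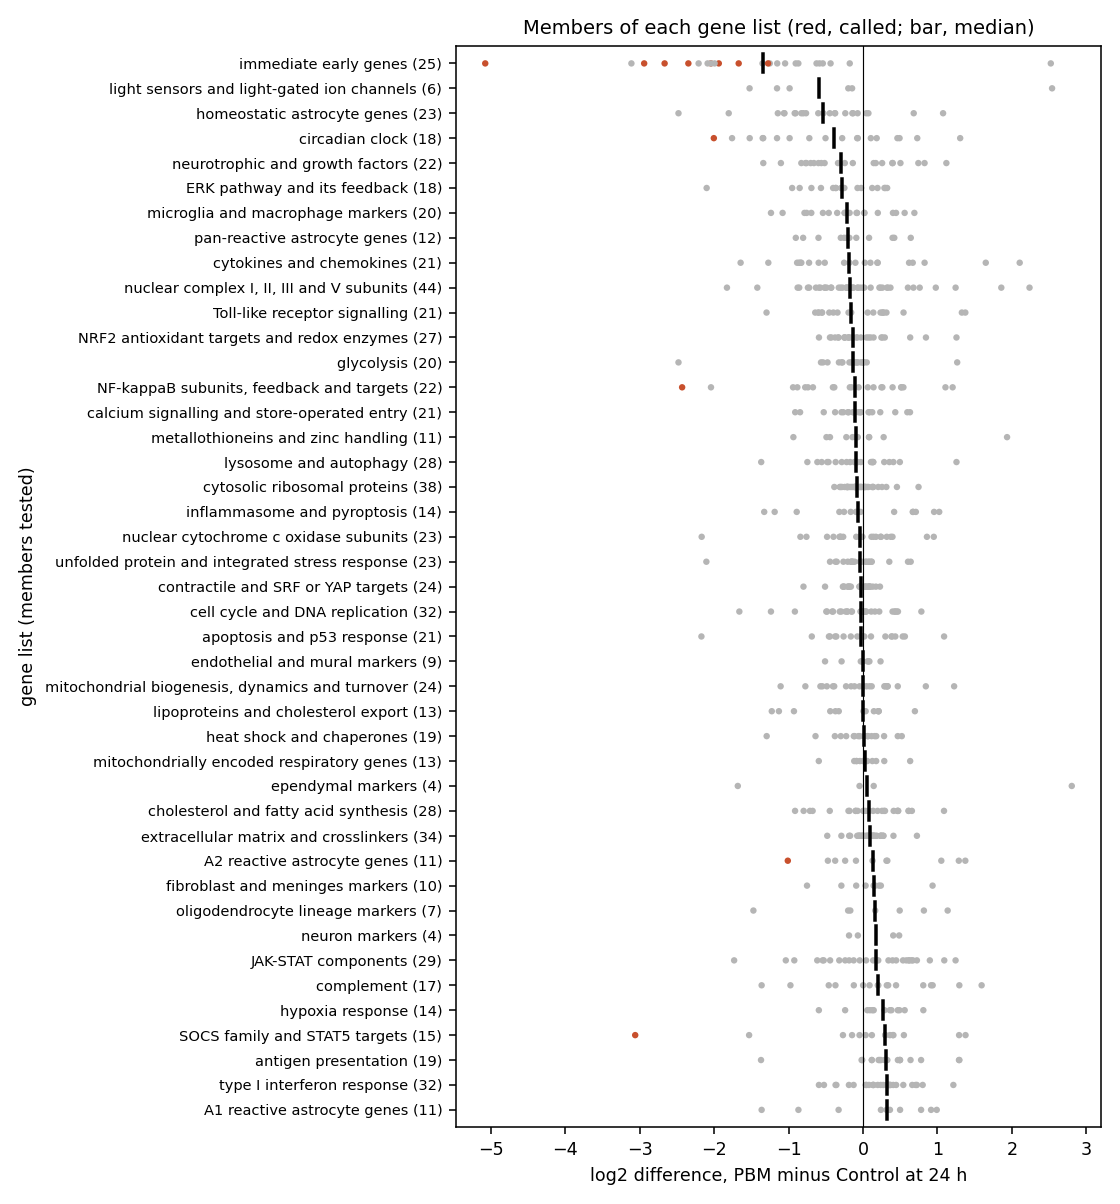
Each point is a member of a gene list with its log2 difference between PBM and Control at 24 h, red where its adjusted p is under 0.05, and the black bar is the list's median. The immediate early genes have the lowest median, -1.35, while the mitochondrial lists lie around 0.

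The same comparison was made at 4 h. With a limma fit over all 32 libraries, 4 of 12535 genes were called at 4 h (0.0319%), among them Fosb, which fell by 1.54 on the log2 scale (108 ± 24.6 FPKM in Control, 36.9 ± 12.2 FPKM in PBM, adjusted p = 0.0281). The other 3, Ifit3b, Mt1 and S100a7a, were higher and are named after their values were seen. Of the 25 immediate early genes 19 lay below 0 at 4 h (48.2% of all genes did), with a median of -0.60, and their summed level was 1653 to 1958 FPKM in Control and 1182 to 1217 FPKM in PBM. Egr1 was at 224 ± 44.9 and 146 ± 16.5 FPKM, Fos at 277 ± 42.8 and 137 ± 14.0 FPKM, and Nr4a1 at 83.4 ± 14.7 and 21.6 ± 3.48 FPKM. None of these 3 passed at 4 h. The type I interferon list had the larger median at 4 h, 0.62 against 0.33 at 24 h, with 31 of 32 genes above 0 and 1 call, Ifit3b. At an unadjusted p under 0.05, 16 of the 32 were higher at 4 h, as were 3.2% of all genes. No gene of that list passed in the test of the effect at 24 h minus that at 4 h.

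The difference between the effects at 24 h and at 4 h was tested directly. Only Ptgs2 passed among 13266 genes (0.00754%). It stood at 277 ± 44.7 FPKM in Control and 283 ± 31.5 FPKM in PBM at 4 h, against 232 ± 11.9 and 115 ± 13.8 FPKM at 24 h, so that the log2 difference was lower by 1.05 ± 0.15 at 24 h (adjusted p = 0.00209). No gene passed when only the 4 groups compared were fitted, and Ptgs2 was not among the 3 genes called with limma-voom on approximate fragments. Leaving out Control replicate 2 or PBM replicate 2, 3 or 4 at 24 h gave 2 to 4 genes, with Ptgs2 among them. For Egr1 the effect was lower by 1.34 ± 0.26 at 24 h and for Nr4a1 by 3.18 ± 0.64, neither of which passed (adjusted p = 0.0923 and 0.0953).

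**Figure D4:**
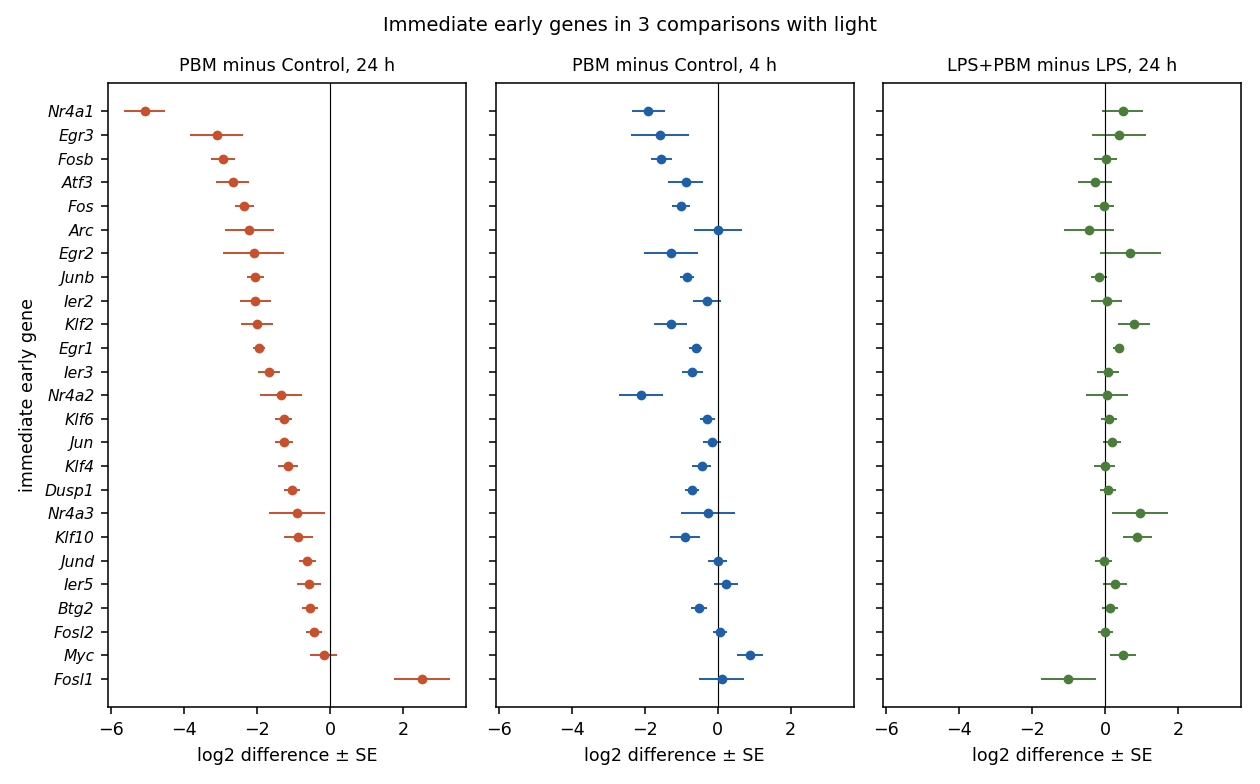
The 25 immediate early genes are shown with their log2 difference and SE in 3 comparisons, PBM against Control at 24 h, PBM against Control at 4 h, and LPS with PBM against LPS at 24 h. The medians are -1.35, -0.60 and 0.09, and 24, 19 and 7 of the 25 genes lie below 0.

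Light given with LPS did not go with lower early genes at 24 h. In LPS with PBM against LPS alone, 7 of the 25 immediate early genes lay below 0 (51.4% of all genes did), with a median of 0.09. Their summed level was 1351 to 1904 FPKM with LPS and 1566 to 1960 FPKM with LPS and PBM, against 549 to 743 FPKM with PBM alone. In this comparison 1 of 12309 genes was called (0.00812%), Sprr2b, and none of the early genes.

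A test of the difference between the light effect with and without LPS at 24 h called 7 of 13278 genes (0.0527%). The effect was higher with LPS for 6 of them, which were Egr1, Fos, Fosb, Junb, Nr4a1 and Ptgs2. In LPS cultures their log2 differences with light lay between -0.16 (Junb) and 0.49 (Nr4a1), and none was called. The test subtracts the light effect without LPS that had called these 6 genes, so it is not independent of those calls. Egr1 stood at 159 ± 28.1 FPKM with LPS and 203 ± 10.9 FPKM with LPS and PBM, so its effect differed by 2.31 ± 0.23 (adjusted p = 8.16e-05). Nr4a1 stood at 52.5 ± 6.63 and 75.7 ± 18.5 FPKM, a difference between effects of 5.56 ± 0.79 (adjusted p = 0.00576). Ptgs2, which LPS induces, stood at 705 ± 78.4 and 787 ± 43.8 FPKM, a difference of 1.17 ± 0.16 (adjusted p = 0.00405).

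For Fosb, Fos and Junb the effects differed by 2.95 ± 0.46, 2.31 ± 0.38 and 1.88 ± 0.32 (adjusted p = 0.0126, 0.0234 and 0.0240). Junb was named after its value was seen, as the sixth gene in that direction. The seventh gene called, Sprr2b, was listed at 0 in every library at 24 h except those given LPS alone. When PBM replicate 3, LPS replicate 2 or 3, or LPS with PBM replicate 3 was left out, 4 genes were called, and without the 6 libraries listed last there was 1. Socs3 stood at 26.1 ± 8.08 FPKM with LPS and 30.9 ± 10.2 FPKM with LPS and PBM, and its difference between effects, 3.29 ± 0.71, did not pass (adjusted p = 0.226).

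**Figure D5:**
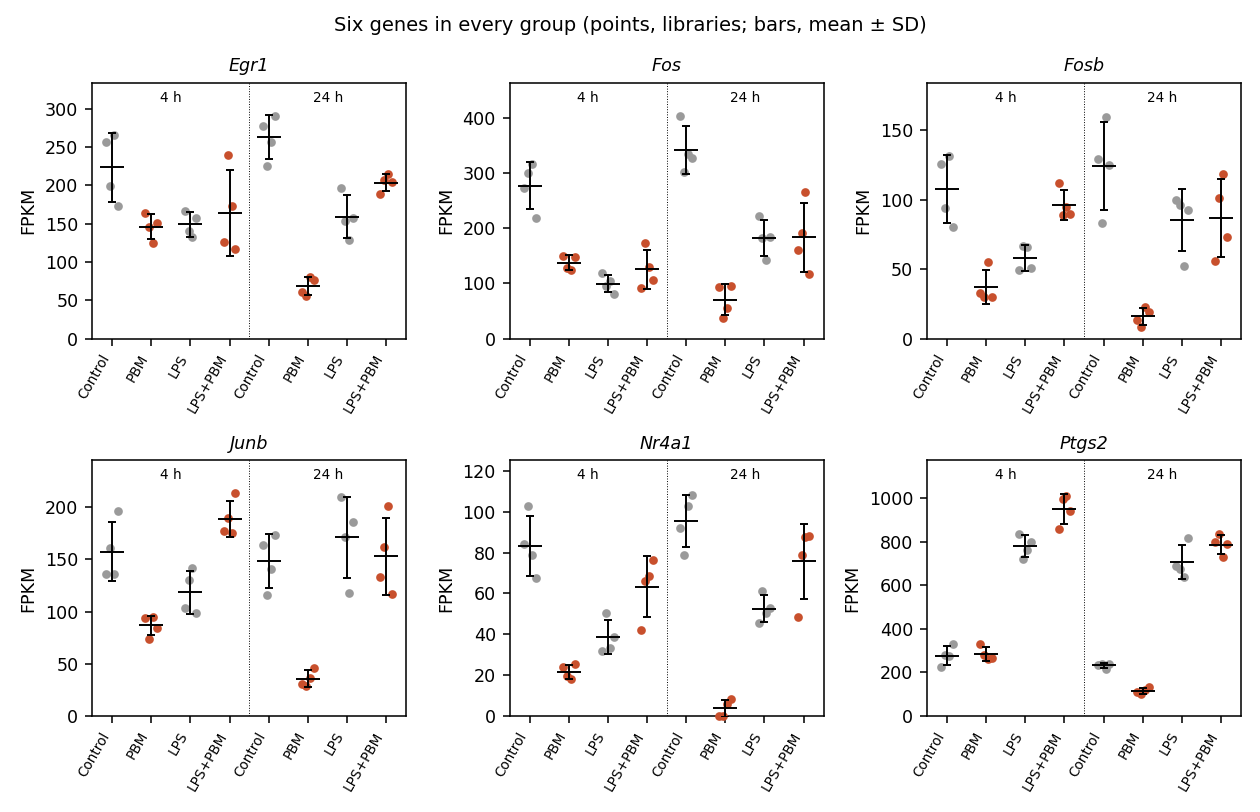
FPKM of Egr1, Fos, Fosb, Junb, Nr4a1 and Ptgs2 in every group at 4 h and 24 h, with points for libraries (red with PBM, grey without) and bars for the mean ± SD of 4. In each of the 6 genes the group given PBM alone at 24 h has the lowest mean of all 8 groups.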

How the data were processed

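Poly(A)-primed full-length cDNA was sequenced for 32 libraries on an Illumina NovaSeq, per the labels' protocols. The authors deposited FPKM values per gene, and the submitters' processing notes name RSEM, StringTie 1.3.1, HISAT2, Bowtie2 2.2.8, fastp 0.18.0 and the build mm10. The tool that made the FPKM values and the strand setting are not named there. Gene names, types and coordinates came from GENCODE M21 (GRCm38), which held 99.58% of the gene IDs, and promoter sequences from RefSeq.

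All 24 h libraries (16, 4 per group) were fitted together with limma 3.58.1 in R 4.3.3 on log2(FPKM + 1), with trended, robust variances. Benjamini-Hochberg adjustment ran over all genes tested and calls were made at 0.05. Tests of effect differences used the same model, with all 32 libraries where 4 h entered. Fold changes of low genes depend on the pseudocount of 1. Depth was inferred from single-transcript genes, where 92.53% of 23542 values came out as whole fragments within 0.05. Counting error only is covered by such depths, since PCR copies cannot be told from molecules. The fit was tested on simulated data.

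The members and the 43 gene lists were chosen with earlier results of these data known. Genes were named by a rule: 10 study genes, up to 15 called genes per direction with a mean of at least 5 FPKM (filled up to 10 by smallest p), per list the 2 with the smallest p and the 2 most abundant, the 10 most abundant protein-coding genes, and up to 5 called genes per direction for effect differences. 6430550D23Rik, Junb in the test with LPS and the other immediate early genes were named after their values were seen. Alternatives were a pseudocount of 0.1, other filters, the replicate number as a block, fewer or more libraries fitted, quantile normalization, quality weights, limma-voom on approximate fragments and leaving out each library. Leaving out the 6 libraries listed last was chosen after seeing the data.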

Additional observations from a re-analysis of the deposited data

Results flagged for a closer look

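In 152 sets of 4 libraries (the genes named, in either group), 16 held a library far from the other 3 by Dixon's test, which flags about 1 in 20 groups by chance. Among low genes, these were Stat5a in Control (lowest, 1.95 FPKM) and in PBM (highest, 1.94 FPKM), Il1b in PBM (highest, 5.38 FPKM), 6430550D23Rik in PBM (highest, 4.82 FPKM), Nr4a2 in PBM (lowest, 0 FPKM), Arc in PBM (highest, 2.40 FPKM) and Prdm11 in Control (highest, 2.52 FPKM). Gpc2 had a high library in Control (2.67 FPKM) and in PBM (13.9 FPKM), Ndufc1 a high library in Control (12.3 FPKM), and Spc24 a low library in PBM (0 FPKM). Nfkbia had a low library in PBM (0 FPKM). Among better measured genes, Ptgs2 had a low library in Control (214 FPKM), H2-D1 a low library in PBM (199.6 FPKM), Fcer1g a low library in PBM (21.7 FPKM) and Apoe a high library in PBM (877 FPKM).

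The effect of PBM differed between settings for 7 genes by a test of the difference itself. For Ptgs2 the log2 difference between PBM and Control was lower at 24 h than at 4 h (-1.05). Between cultures with and without LPS at 24 h, the effects differed by 2.31 for Egr1, 1.17 for Ptgs2, 5.56 for Nr4a1, 2.95 for Fosb, 2.31 for Fos, 1.88 for Junb and -3.82 for Sprr2b.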

How the results depend on the processing

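The 15 genes called between PBM and Control became 7 with only the groups compared in the fit, 23 with limma-voom on approximate fragments (13 shared with the 15) and 9 without the 6 libraries listed last (8 shared). They were 13 to 22 under the other planned settings that kept every library, and 10 to 16 with each library left out. With the replicate number as a block they were 13 (12 shared), without Klf6 (adjusted p = 0.0616), Bhlhe40 (0.0947) and 6430550D23Rik. Those numbers do not pair the libraries by label, and residuals of same-numbered 24 h libraries correlated at -0.027 to 0.032 (24 pairs, 9004 genes), none above 0.1.

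For the effect at 24 h minus that at 4 h, the 1 call became 0 with only the groups compared, 3 with limma-voom, and 1 to 4 with each library left out. For the effect with LPS minus that without, the 7 calls became 4 with the block, 1 without the 6 libraries listed last, and 4 to 8 with each library left out. For the 24 h minus 4 h test the fit with all 32 libraries, and for the LPS test the fit with only the groups compared, are the reported fits.

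Changes of direction were confined to 7 of the genes named, and only that of 6430550D23Rik touched a called gene (-0.056 with limma-voom). With a library left out, the log2 difference of Cish ranged from -0.50 to 0.66, that of Il6 from -0.64 to 0.94 (-0.46 with limma-voom), Ccl2 from -0.71 to 0.20, Cxcl10 from -0.58 to 0.34 and Myc from -0.36 to 0.15. mt-Co1 was at 0 under quantile normalization, which sets the highest gene equal. The cause of the other changes was not tested. Apart from the 16 that changed direction, 53 alternatives took a named gene's call away, 19 added 1 and 1273 left it as it was. Among the 16, that of 6430550D23Rik with limma-voom also ended its call (adjusted p = 0.987). Of the list medians, 9 of 774 moved by more than the spread. At this depth, differences under 1 log2 unit could be bounded in 17.8% of genes.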
